A study of Caenorhabditis elegans with 12 samples.

Results

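The cathepsin B-like cysteine proteases CPR-1 to CPR-6 of Caenorhabditis elegans are encoded by 6 genes, cpr-1 to cpr-6, which were taken from a table of 46748 gene identifiers by matching WormBase symbols to them. All 6 were found and all 6 passed the filter on low counts. The group was picked with the diet response of cpr-2 in view, the gene with the largest rise under dietary restriction in both genotypes among genes with a mean of 5 CPM (counts scaled to library size) or more, so the diet values of the 6 genes are given below as a description without a test. The tests concern genotype and the genotype by diet interaction.

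Papain-family cysteine proteases such as cathepsin B are made as inactive proenzymes, are activated at acid pH and cut proteins in lysosomes or, in nematodes, also in the gut lumen. In C. elegans the intestine both secretes digestive proteases and degrades cargo in its own lysosome-related organelles. CPR-1 is known as a gut cysteine protease, and CPR-4 is known as a secreted protease that is released after irradiation. Cystatins, encoded by cpi-1 and cpi-2, are protein inhibitors of this enzyme family. Nothing was measured here about protease activity, and all values are transcript levels in whole worms.

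Poly(A) RNA was sequenced from day 6 adults in 4 groups of 3 libraries, each library labelled as a biological replicate. The groups were wild-type N2 fed ad libitum (N2 AL), N2 under dietary restriction (N2 DR), sek-1(km4) mutants fed ad libitum (sek-1 AL) and sek-1(km4) mutants under dietary restriction (sek-1 DR). The protein SEK-1 is a kinase that activates the p38 MAP kinase PMK-1 in innate immunity. Its allele km4 is a deletion present in all tissues and at all ages, and no other allele was compared with N2. Dietary restriction meant growth-arrested OP50 bacteria at an optical density of 0.1, against 3 for AL, for 3 days in liquid from adult day 3, after development at 20 °C. All 4 groups had been exposed to 100 mg/L of fluorodeoxyuridine (FUdR) and to the antibiotics used to arrest the food, and the worms were kept at 10 to 20 per well. Nothing in the labels says whether wells were pooled or whether the replicates were separate cultures, so the p-values measure the spread between these libraries only.

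Total counts per library ran from 13673987 to 31675540, of which ribosomal RNA took 32.63% to 50.95%. The library labelled N2 AL replicate 3 had the lowest total and stood apart, with correlations of 0.904 and 0.907 to the other N2 AL libraries across genes, against at least 0.98 within each of the other groups. The targeted gene sek-1 did not check the labels: its gene-level counts gave 20.8 to 28.5 CPM in 5 of the 6 N2 libraries and 16.4 to 22.4 CPM in the 6 mutant libraries. A gene-level count includes reads outside the deleted stretch, so genotypes are as labelled. In the library labelled N2 AL replicate 3 sek-1 was at 3.70 CPM, below all other 11 libraries, those of the mutant included. Its level of this gene was thus like neither genotype. Genotype values are also given without that library. Levels are CPM, counts scaled to library size with edgeR's TMM factors, and a level compared between genes is further divided by exon length in kilobases (CPM per kb). The limit that a count of 0 allows, 3 counts, was 0.104 to 0.279 CPM by library, and the lowest count of any of the 6 genes was 40. All 6 marker lists checked, for intestine, body wall muscle, pharynx, germ line, neurons and hypodermis, were detected, with 0 of their genes at 0 in all libraries. In whole animals, fewer cells of a type and less RNA per cell cannot be told apart.

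In the Ensembl annotation of assembly WBcel235, 5 of the genes lie on chromosome V and cpr-6 lies on X. The coordinates come from that annotation, since the build behind the counts is not given in the sources used here. Cpr-1 (WBGene00000781) spans V 11975551 to 11976756 on the plus strand with 3 exons. Cpr-2 (WBGene00000782) spans V 16532936 to 16534100 on the minus strand with 3 exons and 1065 nt of exon sequence. Cpr-3 (WBGene00000783) spans V 15296834 to 15298700 on the minus strand, and cpr-4 (WBGene00000784) spans V 6614674 to 6615851 on the plus strand. Cpr-5 (WBGene00000785) spans V 1132598 to 1134036 on the minus strand and sits between a pair of further cathepsin B-like genes, cpr-8 at 566 nt on one side and W07B8.4 at 668 nt on the other. Cpr-6 (WBGene00000786) spans X 6607207 to 6609045 on the plus strand and has 8 exons. Each of the 6 has 1 annotated transcript and is protein-coding. Exons of cpr-4 overlap a piRNA gene on the other strand by 21 nt, and the other 5 overlap no annotated gene. How alike the copies are was not examined here, and the handling of reads that match several genes is not given in the sources used here, so reads may be split between copies.

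Cpr-2 had the largest diet difference of the 6 genes. It stood at 8.32, 10.2 and 12.3 CPM in N2 AL and at 105.9, 220.4 and 230.3 CPM in N2 DR. In the mutant it stood at 1.94, 1.54 and 2.92 CPM on AL and at 60.9, 81.3 and 116.4 CPM on DR. Every DR library lay above every AL library, in both genotypes, and the lowest DR value of the mutant was above the highest AL value of N2. The fitted log2 difference between DR and AL was 4.18 ± 0.38 (SE, n = 3 per group) in N2, an 18.2-fold difference, and 5.34 ± 0.41 in sek-1(km4), a 40.5-fold difference. These values chose the gene and support nothing further. By size of the fitted log2 difference cpr-2 ranked 2 of 14611 genes in N2, behind the weakly expressed Y37A1B.7 (4.59 ± 1.32) and ahead of the C-type lectin gene clec-61 (3.71 ± 0.45). In the mutant it ranked 1, ahead of F09G2.8 (4.88 ± 1.43).

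The other 5 genes showed no rise of that size on DR. Cpr-6 was lower on DR, at 272.4, 237.7 and 240.1 CPM in N2 AL against 178.3, 188.6 and 126.3 CPM in N2 DR, a log2 difference of −0.60 ± 0.28 (SE, n = 3 per group). In the mutant cpr-6 went from 266.8, 215.4 and 156.8 CPM to 116.8, 78.01 and 59 CPM, a log2 difference of −1.33 ± 0.28. The AL and DR libraries of cpr-6 did not overlap in either genotype. Cpr-4 did not overlap in the mutant (−0.71 ± 0.42), where it stood at 118.1, 97.7 and 95.4 CPM on AL and 92.3, 54.9 and 42.3 CPM on DR, and it overlapped in N2 (−0.37 ± 0.42). Cpr-1, cpr-3 and cpr-5 overlapped between the diets in both genotypes, with log2 differences of 0.66 ± 0.48, 0.03 ± 0.24 and 0.35 ± 0.40 in N2 and of −0.12 ± 0.48, 0.20 ± 0.24 and −0.31 ± 0.39 in the mutant. Without the library labelled N2 AL replicate 3 the value of cpr-1 in N2 was 1.15, and without sek-1 DR replicate 1 the values in the mutant were −0.81 for cpr-1 and −0.84 for cpr-5. The diets did not overlap for 2 of the 6 genes in N2 and 3 of 6 in the mutant, beside 15.7% and 36.3% of all 14611 genes tested, and nothing is read from these counts because the group was chosen on this contrast. Over all genes, 1.09% passed either way on DR in N2 and 0.452% in the mutant; 0.363% passed as higher and 0.725% as lower on DR in N2, and 0.171% and 0.281% did so in the mutant.

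**Figure D1:**
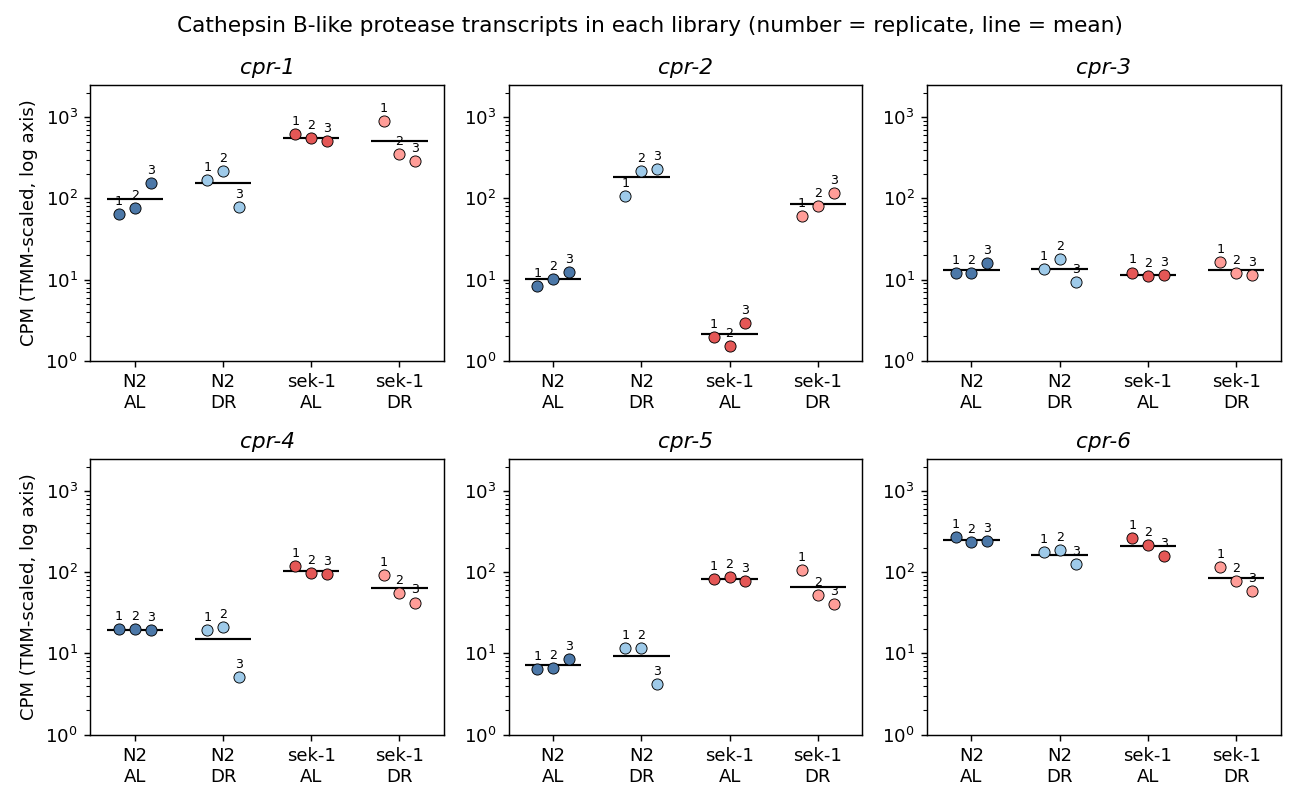
Level of each gene in each of the 12 libraries (TMM-scaled CPM on a log axis; the number above a point is the replicate and the line is the group mean of 3 libraries). Cpr-2 is the gene whose DR libraries all lie above its AL libraries in both genotypes, while cpr-1, cpr-4 and cpr-5 separate by genotype.

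Genotype under full feeding split the group. Cpr-1, cpr-4 and cpr-5 were higher in sek-1(km4) than in N2, by 5.73-fold, 5.27-fold and 11.4-fold, cpr-2 was lower by 4.79-fold, and cpr-3 and cpr-6 did not pass the test. The threshold was 0.05 for the p of edgeR's quasi-likelihood test after Benjamini-Hochberg adjustment over all 14611 genes. Thus 3 of 6 were higher, beside 12.7% of all genes tested, and 1 of 6 was lower, beside 4.72% of all genes. Libraries of the genotypes did not overlap for these 4 genes, beside 35.6% of all genes. The median log2 difference was 1.098 over the 6 genes and 0.02 over all genes. Without the library labelled N2 AL replicate 3 the same 3 and 1 of the 6 genes passed and their median was 1.165, while the genes called over the whole table went from 2550 to 5458.

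Cpr-5 had the largest genotype difference of the 6, from 6.51, 6.69 and 8.64 CPM in N2 AL to 83.1, 87.0 and 78.3 CPM in sek-1 AL. The mutant libraries all lay above the N2 libraries, and the spread within each group was small beside the gap. The log2 difference was 3.52 ± 0.44 (SE, n = 3 per group, edgeR adjusted p = 0.000243). Cpr-1, the gut cysteine protease gene, went from 64.8, 76.0 and 152.9 CPM in N2 AL to 622, 553.2 and 503.9 CPM in sek-1 AL, again without overlap (2.52 ± 0.51, edgeR adjusted p = 0.00549). The N2 library at 152.9 CPM was the one labelled N2 AL replicate 3, and without it the difference was 2.99 (edgeR adjusted p = 0.00813). Cpr-4, for the secreted protease, was nearly constant in N2 AL at 19.7, 19.8 and 19.5 CPM and stood at 118.1, 97.7 and 95.4 CPM in sek-1 AL (2.40 ± 0.44, edgeR adjusted p = 0.00309). All 3 kept their call without the library labelled N2 AL replicate 3.

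Cpr-2 moved the other way on AL. Its 3 mutant libraries, at 1.54 to 2.92 CPM from counts of 40 to 68, lay below the 3 N2 libraries, at 8.32 to 12.3 CPM from counts of 132 to 239. The log2 difference was −2.26 ± 0.37 (SE, n = 3 per group, edgeR adjusted p = 0.0014), and −2.12 without the library labelled N2 AL replicate 3 (edgeR adjusted p = 0.00732). Cpr-3, a further cathepsin B-like gene, stood at 12.07, 12 and 15.9 CPM in N2 AL and 12.2, 10.96 and 11.5 CPM in sek-1 AL, and its difference of −0.20 ± 0.24 did not pass (edgeR adjusted p = 0.608). Cpr-6 overlapped between the genotypes on AL and did not pass either (−0.23 ± 0.27, edgeR adjusted p = 0.601).

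On DR the same 3 genes were higher in the mutant, with smaller fitted folds, and cpr-2 and cpr-6 were lower. Cpr-5 stood at 11.7, 11.7 and 4.18 CPM in N2 DR and 106.9, 52.0 and 41.1 CPM in sek-1 DR, a log2 difference of 2.86 ± 0.42 (SE, n = 3 per group, edgeR adjusted p = 0.00052). Cpr-4 went from 19.3, 21.2 and 5.18 CPM to 92.3, 54.9 and 42.3 CPM (2.05 ± 0.44, edgeR adjusted p = 0.00397). Neither gene overlapped between the genotypes, and both kept their call when any 1 of the 12 libraries was left out. Cpr-1 went from 168, 215.5 and 78.7 CPM to 901.8, 355.1 and 288.4 CPM (1.74 ± 0.49, edgeR adjusted p = 0.0163). Its call ended without N2 DR replicate 3 (1.36, edgeR adjusted p = 0.0694) and without sek-1 DR replicate 1 (1.05, edgeR adjusted p = 0.0837), the lowest and the highest library of this comparison.

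The 2 genes that were lower in the mutant on DR rested on less. Cpr-2 was 105.9, 220.4 and 230.3 CPM in N2 DR and 60.9, 81.3 and 116.4 CPM in sek-1 DR, so that the groups overlapped by 1 library each (−1.11 ± 0.34, SE, n = 3 per group, edgeR adjusted p = 0.022). Its call ended when N2 DR replicate 2 or 3 or sek-1 DR replicate 1 or 2 was left out, with edgeR adjusted p between 0.0557 and 0.0804 and log2 differences between −1.13 and −0.92. It also ended when libraries were scaled to their non-rRNA counts without TMM (−0.86, edgeR adjusted p = 0.0787). Cpr-6 did not overlap, with 126.3 to 188.6 CPM in N2 DR above 59 to 116.8 CPM in sek-1 DR (−0.96 ± 0.28, edgeR adjusted p = 0.0179). This call ended without N2 DR replicate 1 or 2 or sek-1 DR replicate 2 or 3, with edgeR adjusted p between 0.0555 and 0.0764 and log2 differences between −0.96 and −0.76. Cpr-3 was 9.44 to 17.9 CPM in N2 DR and 11.3 to 16.5 CPM in sek-1 DR and did not pass (−0.03 ± 0.24, edgeR adjusted p = 0.921). Of the 6 genes 3 were thus higher and 2 lower on DR, beside 24.9% and 14.6% of all genes tested. The genotypes did not overlap for 4 of the 6, beside 68.8% of all genes. Called either way were 39.5% of all genes on DR and 17.5% on AL, so the 5 of 6 on DR stand beside a high background. The median log2 difference on DR was 0.85 over the 6 genes and 0.17 over all genes.

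**Figure D2:**
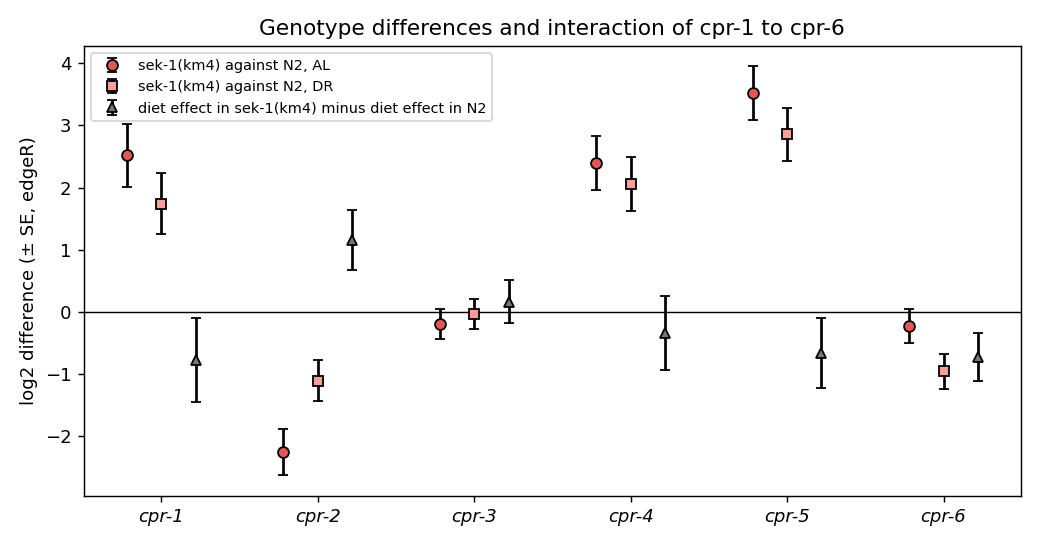
Log2 difference between sek-1(km4) and N2 on AL and on DR, and the interaction (diet effect in the mutant minus diet effect in N2), for each gene, with SE from edgeR. Cpr-1, cpr-4 and cpr-5 lie above 0 on both diets and cpr-2 lies below it, while no interaction passed the test.

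The interaction asked whether the diet effect differed between the genotypes. For cpr-2 the diet effect was larger in the mutant by 1.15 ± 0.49 on the log2 scale, which did not pass (n = 3 per group, edgeR adjusted p = 0.553). Cpr-1 (−0.78 ± 0.68), cpr-4 (−0.34 ± 0.59), cpr-5 (−0.66 ± 0.56), cpr-6 (−0.73 ± 0.39) and cpr-3 (0.17 ± 0.34) did not pass either, with edgeR adjusted p from 0.579 to 0.881. Over all genes 0 of 14611, or 0%, passed in edgeR, with 1302 at an unadjusted p under 0.05 and 33 called by DESeq2. A p that misses the threshold does not show that the diet effects were alike in the genotypes.

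The make-up of the transcript pool of the 6 genes differed in each group. Summed over the 6 genes, the level was 332.1 ± 42.2 CPM per kb (SD, n = 3) in N2 AL, 478.7 ± 104 in N2 DR, 859.3 ± 110 in sek-1 AL and 746.9 ± 367 in sek-1 DR. In N2 AL cpr-6 made up 60.5% ± 9.36 (SD, n = 3) of that pool and cpr-2 made up 2.89% ± 0.374. In N2 DR the share of cpr-2 was 37.0% ± 15.4, ranging from 22.9% to 53.5%, and that of cpr-6 was 27.5% ± 4.45. In the mutant cpr-1 held the largest share on both diets, 60.5% ± 1.43 on AL and 60.9% ± 9.58 on DR. The share of cpr-2 in the mutant was 0.24% ± 0.107 on AL and 13.3% ± 8.41 on DR. A share within a library does not depend on the scaling between libraries, but it does depend on the other genes of the pool. The share of cpr-6 was 19.5% ± 2.71 in sek-1 AL, although its level did not pass by genotype on AL.

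The order of the levels per kb was cpr-6, cpr-1, cpr-4, cpr-3, cpr-2 and cpr-5 in N2 AL, where only cpr-3 and cpr-2 overlapped among neighbours in that order. In N2 DR the order was cpr-2 (174.2 ± 64.9 CPM per kb, SD, n = 3), cpr-1 (142.9 ± 64.4) and cpr-6 (130.5 ± 26.5), which overlapped from neighbour to neighbour, followed by cpr-4 with a mean 9.67-fold below that of cpr-6, and then by cpr-3 and cpr-5, with overlap among these last 3. In sek-1 AL the order was cpr-1, cpr-6, cpr-4, cpr-5, cpr-3 and cpr-2, with no overlap between neighbours. In sek-1 DR cpr-1 led at 477.8 ± 312 CPM per kb, and cpr-2, cpr-6, cpr-4 and cpr-5 followed with overlap between neighbours, between 80.96 ± 26.3 and 55.3 ± 29.3 CPM per kb. Cpr-3 was last there, at 9.70 ± 2.04 CPM per kb, and it was between 8.44 and 9.94 CPM per kb by mean in all 4 groups.

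**Figure D3:**
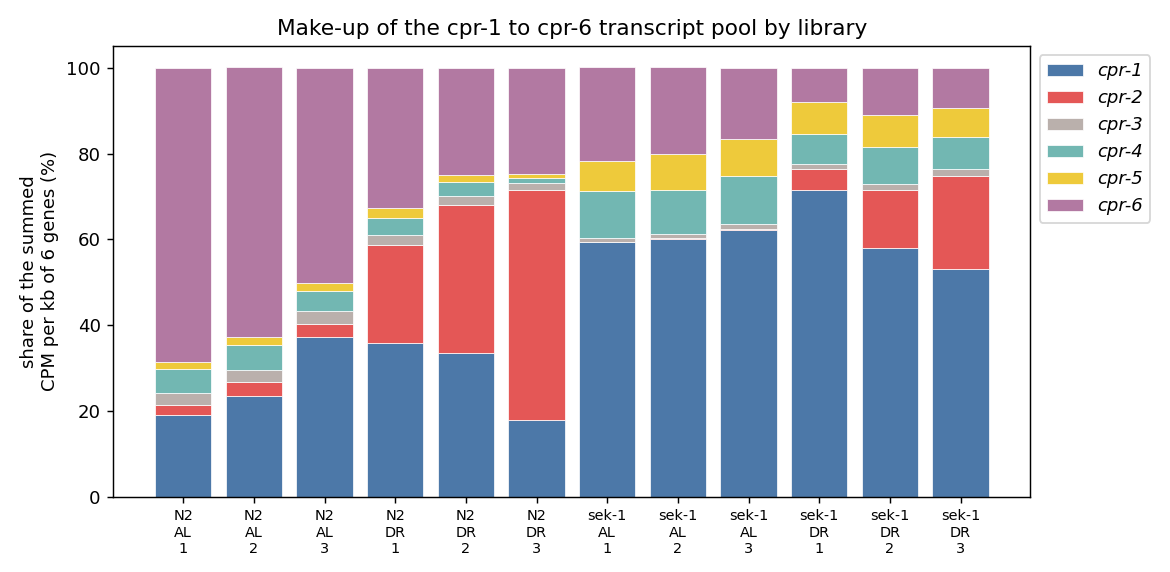
Share of each gene in the summed CPM per kb of the 6 genes, in percent, for each library. Cpr-6 fills more than any other gene in N2 AL, cpr-2 takes 22.9% to 53.5% in N2 DR, and cpr-1 takes most of the pool in all 6 mutant libraries.

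Taken over the 12 libraries together, deviations from the group means correlated positively among 5 of the genes and negatively with cpr-2. After each group's mean was subtracted on the log2 CPM scale, Pearson's r over the 12 libraries was 0.92 between cpr-1 and cpr-5, 0.94 between cpr-4 and cpr-5, 0.94 between cpr-1 and cpr-3 and 0.79 between cpr-1 and cpr-4. Cpr-6 had r between 0.66 and 0.77 with these 4. Cpr-2 had negative r with all 5 others, from −0.17 with cpr-3 to −0.69 with cpr-6. These are descriptions over libraries that share scaling factors and group means. Most of the pattern lay in the DR libraries, though in N2 DR replicate 2 every gene, cpr-2 included, was above its group mean. In N2 AL the deviations of cpr-2 (−0.28, 0.01 and 0.27) ran the same way as those of cpr-1 (−0.49, −0.26 and 0.75). The same held there for cpr-3 and cpr-5 but not for cpr-4 and cpr-6. N2 DR replicate 3 was below its group mean by 1.30 log2 units for cpr-4, 0.98 for cpr-5 and 0.85 for cpr-1, and sek-1 DR replicate 1 was above it by 1.00 for cpr-1, 0.81 for cpr-5 and 0.62 for cpr-4. For cpr-2 the same 2 libraries deviated by 0.40 and −0.45. Genes outside the group differed in these libraries too. The aspartyl protease gene asp-1 stood at 730.2, 708.1 and 342.4 CPM in N2 DR and 876, 353.6 and 250 CPM in sek-1 DR. The cystatin gene cpi-1 went the other way, at 185.5, 189.9 and 336.1 CPM and at 23.8, 27.6 and 31.9 CPM. The pattern was thus not particular to the cpr genes, and its source was not tested.

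**Figure D4:**
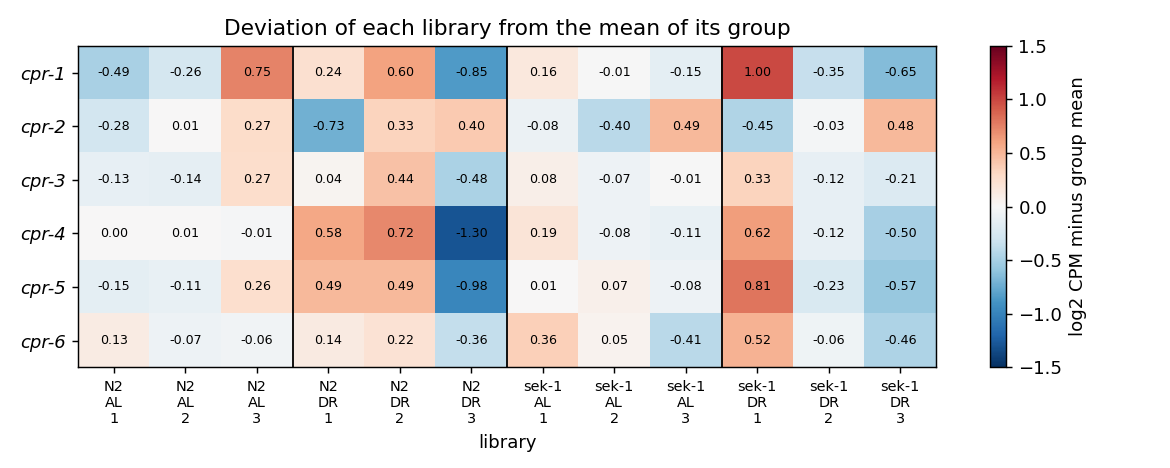
Log2 CPM of each gene in each library minus the mean of its group (colour and printed value; vertical lines separate the groups). In N2 DR replicate 3 and sek-1 DR replicate 1 cpr-1, cpr-3, cpr-4, cpr-5 and cpr-6 share a sign and cpr-2 has the opposite sign.

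Genes with a pattern like that of each member were sought among 7926 genes that averaged 5 CPM or more, by Pearson's r of log2 CPM over the 12 libraries, group differences included, so that for a member chosen on diet the likeness restates that choice. For cpr-2 the 5 highest were F43C11.7 (0.93), the alcohol dehydrogenase gene adh-1 (0.93), T28F3.5 (0.92), F44F1.6 (0.91) and the linker histone gene hil-1 (0.91). Adh-1 stood at 71.9 CPM by mean in N2 AL, 200.5 in N2 DR, 60.0 in sek-1 AL and 174.6 in sek-1 DR, so it shared the order of the diets but had a much smaller span than cpr-2. For cpr-6 the highest was asp-4 (0.99), which encodes a lysosomal aspartyl protease, with 216.7, 164.5, 191 and 108 CPM by mean in the same order of groups, and then C24B9.3 (0.97) and Y105C5B.15 (0.96).

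Cpr-1 and cpr-5 were close to each other. For cpr-1 the highest r was with cpr-5 (0.96), and F28H7.3 (0.96) and Y49E10.18 (0.95) came next. For cpr-5 the highest were the patched-related gene ptr-25 (0.98), acn-1 (0.98), which encodes a protein related to angiotensin-converting enzyme that lacks its active site and is needed for molting, and the collagen gene col-76 (0.98). For cpr-4 they were the C-type lectin gene clec-150 (0.97), the galectin gene lec-5 (0.97) and F28H7.3 (0.96). Cpr-3, which differed little between the groups, had lower values, with F53A9.8 (0.81), acin-1 (0.74) and B0302.5 (0.71) the highest.

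Further papain-family proteases were examined as a list of 22 genes in the table, of which 18 passed the filter on low counts. On AL 3 of the 18 were higher and 1 was lower in the mutant, beside 12.7% and 4.72% of all genes, and on DR 5 were higher and 0 lower, beside 24.9% and 14.6% of all genes. Without the library labelled N2 AL replicate 3 the AL count was 6 higher and 1 lower, and the median log2 difference was 0.42 in place of 0.18. In that fit the genes called over the whole table went from 2550 to 5458, and the median over all genes moved by 0.081. Y71H2AR.2, K02E7.10, W07B8.4 and C32B5.13 had counts under 10 in every N2 library and passed the filter through the mutant libraries, so a call of theirs as higher partly restates the filter. Among the other 14, a division made after the values were seen, 2 were higher and 1 lower on AL (median 0.12, against 0.02 over all genes) and 2 higher and 0 lower on DR (0.37, against 0.17 over all genes). On AL these shares were near those over all genes, and on DR they were below them. From the shares over all genes no genes were set aside in this way, so the sets are not alike.

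The 2 higher genes among those 14 were tag-196 and cpr-8. The cathepsin F-like gene tag-196 went from 23.7, 19.5 and 18.95 CPM in N2 AL to 39.3, 39.0 and 44.2 CPM in sek-1 AL (0.98 ± 0.16, SE, n = 3 per group, edgeR adjusted p = 0.00129), and it was higher on DR as well (1.25 ± 0.16, edgeR adjusted p = 0.00019). Cpr-8, beside cpr-5 on chromosome V, was at 0.588 CPM by mean in N2 AL and 1.52 in sek-1 AL, from counts of 6 to 43 (1.36 ± 0.34, edgeR adjusted p = 0.0185), a call that ended without N2 AL replicate 1, sek-1 AL replicate 2 or sek-1 AL replicate 3. On DR cpr-8 was higher too (1.97 ± 0.32, edgeR adjusted p = 0.00101). W07B8.4, on the other side of cpr-5, had counts of 0 to 7 in the N2 libraries, 5 to 7 in sek-1 AL and 13 to 45 in sek-1 DR. Y71H2AR.2 had counts of 1 to 3 in the N2 libraries and 15 to 29 in the mutant libraries, and K02E7.10 had 2 to 9 and 12 to 30.

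Cpl-1, for cathepsin L, did not pass by genotype, at −0.27 ± 0.23 on AL and 0.31 ± 0.23 on DR (SE, n = 3 per group, edgeR adjusted p = 0.452 and 0.307). Cpz-1, for cathepsin Z, did not pass either, at −0.02 ± 0.26 and −0.05 ± 0.26 (edgeR adjusted p = 0.973 and 0.899). Cpr-9, a cathepsin B-like gene on chromosome V, had 62.7 CPM by mean in N2 AL and 117.7 in sek-1 AL and did not pass (0.91 ± 0.40, edgeR adjusted p = 0.137). Cpz-2 was the lower gene on AL (−0.55 ± 0.17, edgeR adjusted p = 0.0431), and 11 of the 12 fits that left out 1 library ended that call. It held without the library labelled N2 AL replicate 3 (−0.666, edgeR adjusted p = 0.00204). On DR against AL 0 of the 18 genes passed in either genotype in the fit of all 12 libraries, beside 1.09% of all genes in N2 and 0.452% in the mutant. In the mutant 3 were higher and 1 lower without the library labelled N2 AL replicate 3, 3 higher and 2 lower with only the 6 mutant libraries, and 1 each way by DESeq2. In N2 1 was lower with the replicate number as a block and 1 was higher by DESeq2. Over all genes the settings named for the mutant called 2239, 2161 and 633 on DR, against 66 in the fit of all 12 libraries. Those named for N2 called 246 and 458, against 159.

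Of the 2 cystatin genes, cpi-1 was lower in the mutant. It stood at 171.7, 196.8 and 967.3 CPM in N2 AL and 39.96, 34.2 and 48.4 CPM in sek-1 AL. Every mutant library lay below every N2 library, and the library at 967.3 CPM was the one labelled N2 AL replicate 3. The log2 difference was −3.44 ± 0.60 (SE, n = 3 per group, edgeR adjusted p = 0.00223), and −2.18 without the library labelled N2 AL replicate 3 (edgeR adjusted p = 2.83e-05). On DR cpi-1 went from 185.5, 189.9 and 336.1 CPM in N2 to 23.8, 27.6 and 31.9 CPM in the mutant (−3.096 ± 0.59, edgeR adjusted p = 0.00231). Cpi-2 did not pass on either diet (−0.10 ± 0.19 and 0.18 ± 0.19, edgeR adjusted p = 0.758 and 0.48). Neither cystatin passed on DR against AL in the fit of all 12 libraries, with cpi-1 at −0.91 ± 0.55 in N2 (edgeR adjusted p = 0.477) and −0.56 ± 0.55 in the mutant (edgeR adjusted p = 0.721). Without the library labelled N2 AL replicate 3 the value of cpi-1 in N2 was 0.38 (edgeR adjusted p = 0.54), so its direction rested on that library. With only the 6 mutant libraries 1 of the 2 cystatins was lower on DR. That fit called 2161 of all genes, against 66 in the fit of all 12 libraries.

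**Figure D5:**
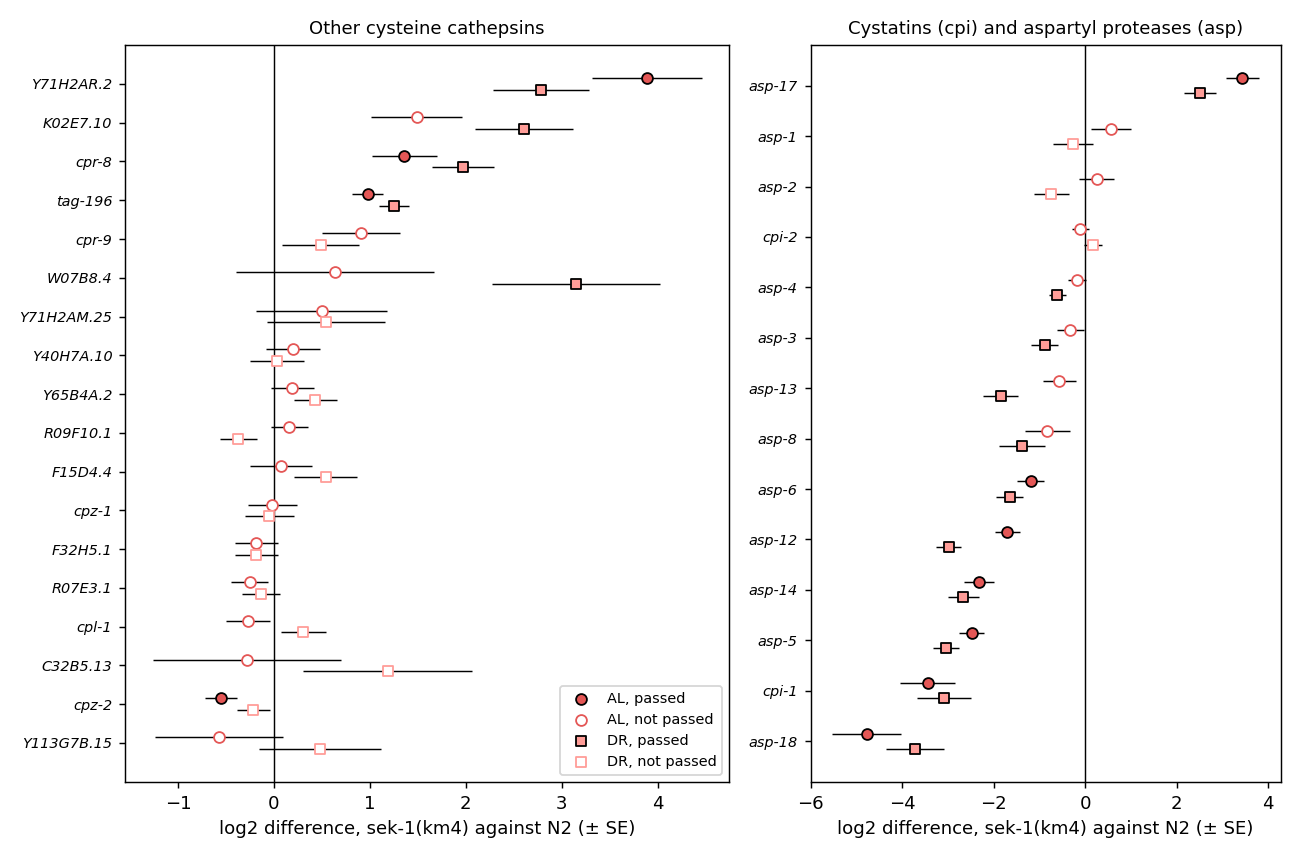
Log2 difference between sek-1(km4) and N2, with SE, for the other cysteine cathepsins (left) and for the cystatin and aspartyl protease genes (right), on AL (circles) and DR (squares), where filled symbols passed edgeR's test. Cpi-1 and most aspartyl proteases lie below 0 while tag-196 and cpr-8 lie above it; values of genes near the limit of 3 counts, such as Y71H2AR.2, W07B8.4 and asp-18, depend on the prior count.

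The aspartyl proteases are another class of lysosomal and digestive endopeptidases. Of 12 tested asp genes 5 were lower and 1 higher in the mutant on AL (median log2 difference −0.70), beside 4.72% and 12.7% of all genes, and 6 did not pass. On DR 9 were lower and 1 higher (−1.52), beside 14.6% and 24.9% of all genes, or 6 lower and 1 higher when scaled to non-rRNA counts without TMM. In the 12 fits without 1 library, asp-8 kept its DR call in 2, asp-4 in 7 and asp-3 in 8. Each of these calls held without the library labelled N2 AL replicate 3. Asp-6 kept its AL call in 9, and the other calls of lower asp genes held in all 12. Asp-18 and asp-8 had counts under 10 in every mutant library, with 0 to 3 against 6 to 39 in N2 for asp-18, and among the other 10 genes 4 were lower on AL and 7 on DR. No test set this list against the cysteine cathepsins. Asp-5 went from 192.8 CPM by mean in N2 AL to 34.5 in sek-1 AL (−2.48 ± 0.28, SE, n = 3 per group, edgeR adjusted p = 0.000128), and on DR its difference was −3.04 ± 0.28 (edgeR adjusted p = 3.24e-05). Asp-14 was lower on both diets (−2.33 ± 0.33, edgeR adjusted p = 0.00054, and −2.67 ± 0.34, edgeR adjusted p = 0.000206), and so was asp-12 (−1.70 ± 0.27, edgeR adjusted p = 0.00131, and −2.99 ± 0.28, edgeR adjusted p = 3.14e-05). Asp-17 went the other way, from 4.59 to 49.7 CPM on AL (3.44 ± 0.36, edgeR adjusted p = 8.96e-05).

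With DR in N2 asp-12 rose (1.5 ± 0.26, edgeR adjusted p = 0.0196), which was the 1 call among the 12 asp genes, and it ended without N2 AL replicate 2, N2 DR replicate 1 or N2 DR replicate 2. With only the 6 N2 libraries 0 asp genes passed, as did 0 of all genes. By DESeq2 2 were higher, where 458 of all genes were called, against 159 in the fit of all 12 libraries. In the mutant 0 of 12 passed on DR in the fit of all 12 libraries. Without the library labelled N2 AL replicate 3, 3 were lower, and 3 were by DESeq2. With the replicate number as a block 2 were lower, and with only the 6 mutant libraries 2. Over all genes these settings called 2239, 633, 183 and 2161 in the mutant, against 66 in the fit of all 12 libraries.

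Of 16 carboxypeptidase, serine peptidase and peptide transporter genes, 3 were higher and 2 lower by genotype on AL, beside 12.7% and 4.72% of all genes, and 4 were higher and 3 lower on DR, beside 24.9% and 14.6%. Without the library labelled N2 AL replicate 3 the genes called over the whole table on AL went from 2550 to 5458. In that fit the AL count of this list was 5 higher and 3 lower. Ctsa-3.2 was among these 5, with counts of 0 to 9 in the N2 libraries and 6 to 24 in the mutant libraries. It passed the filter through the mutant libraries, so its call partly restates the filter. The largest on AL were pcp-2 (−2.15 ± 0.37, SE, n = 3 per group, edgeR adjusted p = 0.00208), ctsa-4.2 (−1.85 ± 0.31, edgeR adjusted p = 0.00165), pcp-3 (1.61 ± 0.28, edgeR adjusted p = 0.00229) and pept-3 (0.98 ± 0.23, edgeR adjusted p = 0.0138), whose call ended without sek-1 AL replicate 2. On DR the largest were pept-1, for an intestinal peptide transporter (2.00 ± 0.52, edgeR adjusted p = 0.011), pcp-3 (1.89 ± 0.28, edgeR adjusted p = 0.000567), pept-3 (1.70 ± 0.23, edgeR adjusted p = 0.000312) and pcp-5 (1.35 ± 0.15, edgeR adjusted p = 9.4e-05). With DR, pcp-2 fell in N2 (−2.41 ± 0.38, edgeR adjusted p = 0.0151), a call that ended without N2 DR replicate 2 or 3. It also ended with only the 6 N2 libraries, where 0 genes of this list and 0 of all genes passed.

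Transcription factors with known roles in the intestine, the lysosome or dietary restriction were read as a list of 14 tested genes. On AL 3 were higher and 0 lower in the mutant, beside 12.7% and 4.72% of all genes, and on DR 6 were higher and 0 lower, beside 24.9% and 14.6%. Elt-2, for the GATA factor of the intestine, went from 1.39, 2.69 and 1.11 CPM in N2 AL to 5.11, 4.81 and 5.32 CPM in sek-1 AL (1.54 ± 0.34, SE, n = 3 per group, edgeR adjusted p = 0.00878). On DR elt-2 was higher too (1.26 ± 0.32, edgeR adjusted p = 0.0103), a call that ended without N2 DR replicate 3. Blmp-1, for a zinc finger factor active in the hypodermis, went from 4.12 to 27.6 CPM by mean on AL (2.71 ± 0.30, edgeR adjusted p = 0.000134) and from 2.54 to 31.8 CPM on DR (3.64 ± 0.32, edgeR adjusted p = 2.21e-05). Pha-4 (1.44 ± 0.44, edgeR adjusted p = 0.0218) and mxl-3 (1.34 ± 0.37, edgeR adjusted p = 0.0137) passed as higher on DR, and 4 and 3 of the 12 fits without 1 library ended these calls. Hlh-30, for the TFEB-like regulator of lysosomal genes, passed narrowly on both diets (0.88 ± 0.27 and 0.78 ± 0.27, edgeR adjusted p = 0.0472 and 0.0413). Of the 12 fits without 1 library 10 ended each call. Without the library labelled N2 AL replicate 3 both calls held (0.58 and 0.715, edgeR adjusted p = 0.00807 and 0.00027). That fit called 5458 of all genes on AL and 9590 on DR, against 2550 and 5768. Daf-16 did not pass (0.42 ± 0.33 and 0.28 ± 0.33, edgeR adjusted p = 0.404 and 0.508). On DR against AL 0 of the 14 passed in either genotype in the fit of all 12 libraries. Without the library labelled N2 AL replicate 3 blmp-1 was lower on DR in N2 (−1.002, edgeR adjusted p = 0.0166). With only the 6 mutant libraries 3 of the list were higher on DR. Over all genes those fits called 406 on DR in N2 and 2161 on DR in the mutant, against 159 and 66.

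Tissue markers also differed by genotype beside cpr-1, cpr-4 and cpr-5, and the counts below stand beside 12.7% of all genes higher and 4.72% lower on AL, and 24.9% and 14.6% on DR. Of 10 intestinal markers 4 were higher and 0 lower in the mutant on AL, and their summed level was 243.2 to 287.6 CPM in N2 AL and 356.8 to 404.8 CPM in sek-1 AL. On DR 5 were higher and 1, the gut esterase gene ges-1, was lower, with sums of 218.3 to 297.9 CPM in N2 and 306.4 to 400.5 CPM in the mutant. Of 6 hypodermal markers 5 were higher on AL and 4 on DR, among them rol-6, with counts of 0 to 8 in N2. Rol-6 passed the filter through the mutant libraries, so its call partly restates the filter. Among the other 5 markers 4 were higher on AL and 3 on DR. Their median log2 differences were 2.277 and 1.208, in place of 2.625 and 2.719 with rol-6. The sum over all 6 hypodermal markers was 50.1 to 70.5 CPM in N2 AL and 200.6 to 270.5 CPM in sek-1 AL. It was 48.0 to 97.5 CPM in N2 DR and 119 to 189.7 CPM in sek-1 DR.

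Of 8 germ line and oocyte markers 0 passed on AL and 6 were lower on DR, with sums of 6255 to 7227 CPM in N2 DR and 2614 to 3859 CPM in sek-1 DR. When the library labelled N2 AL replicate 3 was left out, 6 of them were lower on AL and 8 on DR. That fit called 5458 of all genes on AL and 9590 on DR, against 2550 and 5768 in the fit of all 12 libraries. Of 7 neuronal markers 4 were higher on each diet, with sums of 144.3 to 242.6 CPM in N2 AL and 172.2 to 186.2 CPM in sek-1 AL. Of 5 tested pharyngeal markers 1 was lower on AL, and 3 were higher and 1 lower on DR, with sums of 16.2 to 32.6 CPM in N2 DR and 33.7 to 35.9 CPM in sek-1 DR. Of 6 body wall muscle markers 0 passed on AL and 1 was higher on DR, with sums of 116 to 291.3 CPM in N2 DR and 241.6 to 308.4 CPM in sek-1 DR. The part of these tissue markers in the genotype differences of the cpr genes was not tested. On DR against AL 0 of the 10 intestinal and 0 of the 6 hypodermal markers passed in the fit of all 12 libraries. In the mutant 1 of each list was lower without the library labelled N2 AL replicate 3, and 1 hypodermal marker was lower with only the 6 mutant libraries. In N2 1 intestinal marker was lower by DESeq2. Over all genes the settings named for the mutant called 2239 and 2161 on DR, against 66 in the fit of all 12 libraries. DESeq2 called 458 on DR in N2, against 159.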

How the data were processed

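The authors deposited 1 table of whole-number read counts per gene and library, not normalized. Per the submitters' processing notes, featureCounts from Subread was used; the sources used here do not give the aligner, build, annotation, strand setting or versions. Reads were 50 bp single-end with poly(A) enrichment, per the labels' protocols. Of 46748 identifiers, 43693 had a symbol and 46449 were in the Ensembl 115 annotation of WBcel235, which gave exon lengths. The counts went into edgeR 4.0.16 (R 4.3.3) with TMM scaling, filterByExpr (minimum count 10, 14611 genes left) and 1 robust quasi-likelihood fit of all 12 libraries, with a mean per group and 1 common spread for the 4 groups. P-values were Benjamini-Hochberg adjusted over all genes tested. SE is the absolute log2 difference divided by the square root of F. Log2 CPM for correlations used a prior count of 2. Alternatives were DESeq2 1.42.0, other scalings and filters, a replicate term, fits of 6 libraries and fits without each library. The fit was tested on simulated data. Limits from counts cover counting error only.

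The genes, lists and tests were chosen with earlier results of these data known. Named are all 6 genes, the called genes of each list and contrast, at most 4 by size (marker lists as counts), cpl-1, cpz-1, cpi-1, cpi-2, elt-2, hlh-30 and daf-16 whatever they did, and the genes most alike by correlation (5 for cpr-2, 3 for each other). Named beyond this are the genes ranked next to cpr-2 on diet, the targeted gene sek-1 and, after their values were seen, cpr-9, C32B5.13, asp-1, asp-3, asp-6, asp-8, ctsa-3.2, ges-1 and rol-6.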

Additional observations from a re-analysis of the deposited data

How the results depend on the processing

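Of 336 genotype and interaction values of the 6 genes under other settings, 317 kept direction and call, 11 lost the call and 8 turned sign, in genes that had not passed. Of 228 diet values, which have no test, 7 turned sign (cpr-3 and cpr-4 in N2, cpr-1 in the mutant) and 3 others moved by more than the spread between replicates. In the AL genotype comparison all 4 calls held under every setting run. Scaling to non-rRNA counts without TMM, which raised the median of all genes by 0.198 on AL and 0.233 on DR, gave −0.865 for cpr-2 by genotype on DR (edgeR adjusted p = 0.0787) and 0.197 for cpr-3, and a minimum count of 50 gave 0.066 for cpr-3; the cause was not tested. Leaving out 1 library gave −1.398 to −0.919 for cpr-2 and −0.314 to 0.2 for cpr-3 by genotype on DR, −0.372 to 0.017 for cpr-6 by genotype on AL, and −0.177 to 0.386 for cpr-3 in the interaction. Without N2 DR replicate 3 cpr-6 was at −0.367 for DR in N2. Genes called by genotype were 2550 on AL (1531 to 5458 without 1 library, 1187 with only the 6 libraries) and 5768 on DR (3785 to 9590, and 8760). The interaction had 0 calls (0 to 13 without 1 library, 6 without a filter, 33 by DESeq2). On DR in N2 159 genes were called (24 to 406 without 1 library, 458 by DESeq2, 0 with only the 6 libraries), and in the mutant 66 (6 to 2239, 633 and 2161, with 114 without a filter and 107 at a minimum count of 50). The highest of each leave-one-out range came without the library labelled N2 AL replicate 3. Fits with only 6 libraries have no interaction value.

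Replicate numbers were not treated as pairs, since only 13 of 18 same-numbered pairs had deviations with r over 0.1 (−0.071 to 0.388, median 0.264; median −0.145 for other pairs). All 6 pairs of number 1 and all 6 of number 3 were over 0.1, against 1 of 6 for number 2, and 8 of 12 libraries correlated best with their own number, a hint from the data and not from the design. With the replicate number as a block, 1 gene was called in the interaction, 246 on DR in N2 and 183 on DR in the mutant, cpr-2 stood at −2.273 on AL, −1.096 on DR and 1.177 in the interaction, and no call among the 6 genes changed.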
